A study of Rattus norvegicus with 18 samples.

Results

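Cytochrome P450 genes other than the classic targets of the aryl hydrocarbon receptor (AhR) were followed in rat WB-F344 cells exposed to PCB126. A gene was taken when its symbol in the platform annotation had the form of a P450 name (Cyp, a family number, a subfamily letter and a gene number), and Cyp1a1, Cyp1a2, Cyp1b1 and Cyp2s1 were left out as members of the AhR battery. This gave 68 of the 16988 genes measured. They rested on 807 probe sets, with a median of 11 per gene. The rule itself uses no measured value, but it was set with earlier results of these data known. A further 5 P450 symbols, Cyp2a3a, Cyp2c, Cyp2d4v1, Cyp3a23/3a1 and Cyp51, do not have this form and were left out.

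WB-F344 is an established, stem-like line of epithelial cells from rat liver, and all samples are of this 1 line. PCB126, a dioxin-like polychlorinated biphenyl of flat shape, binds the AhR. The cells were confluent, at passages 14 to 16, and received either 100 nM PCB126 or its vehicle, 0.1% DMSO. The groups were PCB126 at 6 h and DMSO at 6 h, PCB126 at 24 h and DMSO at 24 h, and PCB126 at 72 h and DMSO at 72 h, with 3 samples and 3 exon arrays each, 18 in all. The labels call the 3 samples of a group independent repeats without saying whether they were separate cultures, so the p-values below measure the spread between these samples.

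P450 enzymes are membrane-bound haem proteins that insert 1 oxygen atom into their substrate, with electrons passed from NADPH by P450 oxidoreductase or, in mitochondria, by ferredoxin. In liver the Cyp2 and Cyp3 families oxidise drugs, solvents and steroids, the Cyp4 family hydroxylates fatty acids at their far end, and other families make or clear bile acids, steroid hormones, vitamin D and retinoic acid. Many of these genes are marks of mature hepatocytes and are controlled there by HNF and C/EBP factors and by nuclear receptors, with the ligand-activated AhR driving chiefly the Cyp1 family.

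Values are log2 expression levels, and a gene's value on an array is the median over its probe sets. The median level of all probe sets, 4.03, is used here as a mark of dimness. Of the 68 P450 genes, 33 had a mean over the 18 arrays above this mark and 35 did not. Of all 16988 genes 13420 had a mean above it, a larger share than among the P450 genes. In 22 of the 68 all 18 values lay below it, and the share of such genes in the whole table was not counted. The 22 included 7 of 8 Cyp2c genes, 3 of 3 Cyp3a genes and 3 of 4 Cyp4a genes of the set. These subfamilies carry much of the drug and fatty acid oxidation of adult rat liver. Cyp3a23/3a1, left out by the form of its symbol, is not among the 3 Cyp3a genes. A dim value gives a poor measure of any change, since RMA is known to compress differences of dim probe sets.

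The label of the line was set against marker lists. Of 13 hepatocyte markers 10 were measured, with means between 3.44 and 5.20, and albumin (Alb, 3.47) and alpha-fetoprotein (Afp, 3.48) lay below the mark. None of the 10 was called at any time by limma, with 2, 0 and 0 at an unadjusted p under 0.05 at 6, 24 and 72 h, and the list's mean per array was 3.98 to 4.24 in PCB126 cultures and 3.97 to 4.19 in DMSO cultures. Of the 10, 5 had a mean above the mark, beside 13420 of all 16988 genes. Of 8 bile duct markers 7 were measured, and 5 had a mean above the mark. Their means ran from 2.25 (Epcam) to 10.90 (Aqp1), and Cftr (2.52) also lay below the mark. Krt19, a keratin of bile duct cells, was lower at all 3 times (-1.01, -0.95 and -1.37, limma's adjusted p 0.0267, 0.00804 and 2.17e-04), Aqp1, a water channel, at 24 and 72 h and Sox9, a progenitor transcription factor, at 72 h. Not all of the list fell, and its changes at 72 h ran from -1.44 to 0.32 (Krt7). The bile duct list's mean per array was 5.33 to 5.71 in PCB126 cultures and 5.73 to 6.03 in DMSO cultures, and the part of this shift in the P450 results was not tested. Of 7 measured mesenchymal markers Vim (vimentin) alone was called, higher at 24 and 72 h. Of these 7, 6 had a mean above the mark. Vim (12.59), Col1a2 (10.83), Col1a1 (10.75) and Des (8.69) were the brightest, and Lrat (3.81) lay below the mark. What these levels mean for the epithelial label was not tested. The mesenchymal list's changes at 72 h ran from -0.61 (Thy1) to 1.15 (Vim), with a median of 0.01. Of 8 measured blood and endothelial markers Cd14 and Tek were called, lower at 24 and 72 h. Cd68 went the other way without a call (0.56 at 24 h and 0.28 at 72 h). Ptprc, which marks white blood cells, had a mean of 3.03. Fewer cells of a type and less RNA per cell cannot be told apart in these bulk samples.

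The arrays were alike in level, with medians over all probe sets between 4.06 and 4.15. The interquartile range of relative log expression over genes was 0.275 to 0.475, and was widest in replicates 1 (0.461) and 2 (0.475) of PCB126 at 72 h. All array results rest on 3 arrays per group, which limits their precision, and the median standard error of a change was 0.22 for the P450 genes and 0.18 for all genes.

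Of the 68 P450 genes 5 were called at 1 or more of the times. By limma's moderated test with Benjamini-Hochberg adjusted p-values over the whole table, and a gene called at an adjusted p under 0.05, 1 of 68 was called at 6 h (lower), against 0.494% of all genes (0.241% lower). At 24 h 5 were called, 1 higher and 4 lower, which is 7.35% of the 68 against 4.84% of all genes (1.7% higher and 3.14% lower). At 72 h 4 were called, 1 higher and 3 lower, which is 5.88% against 7.44% of all genes (3.3% higher and 4.14% lower). The shares at 24 and 72 h lie near the background, and the share at 6 h rests on 1 gene. With the gene values quantile normalised, the 72 h split was 3 higher and 3 lower, and with the arrays centred on the median of the genes it was 2 higher and 3 lower.

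The called genes were Cyp2e1, Cyp2t1, Cyp2u1, Cyp39a1 and Cyp4b1, so 63 of the 68 were called at no time. The median log2 change over the 68 was 0.01 at 6 h, -0.03 at 24 h and -0.02 at 72 h, beside -0.01, -0.02 and 0.00 over all genes. The change was smaller than 0.5 in size in 61, 59 and 58 genes at the 3 times, and it reached 2-fold in 0, 3 and 2 genes. These counts were not made for all genes. The median size of the change, without sign, was 0.20, 0.20 and 0.23, beside 0.14, 0.17 and 0.18 over all genes. At an unadjusted p under 0.05 there were 11, 12 and 13 of 68 (16.2%, 17.6% and 19.1%), beside 8.31%, 15.4% and 18.6% of all genes. A p that misses the threshold does not show that a gene did not change. Of the genes not called, 59 of 67 at 6 h, 56 of 63 at 24 h and 53 of 64 at 72 h had a 95% confidence interval that lay wholly within a 2-fold change. These counts take in the 35 dim genes, none of which was called. How far the differences of these dim genes are compressed was not measured. Where one is compressed, its interval does not bound the real change, and bright and dim genes were not counted apart. Confidence intervals here are for single genes, without adjustment.

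**Figure D1:**
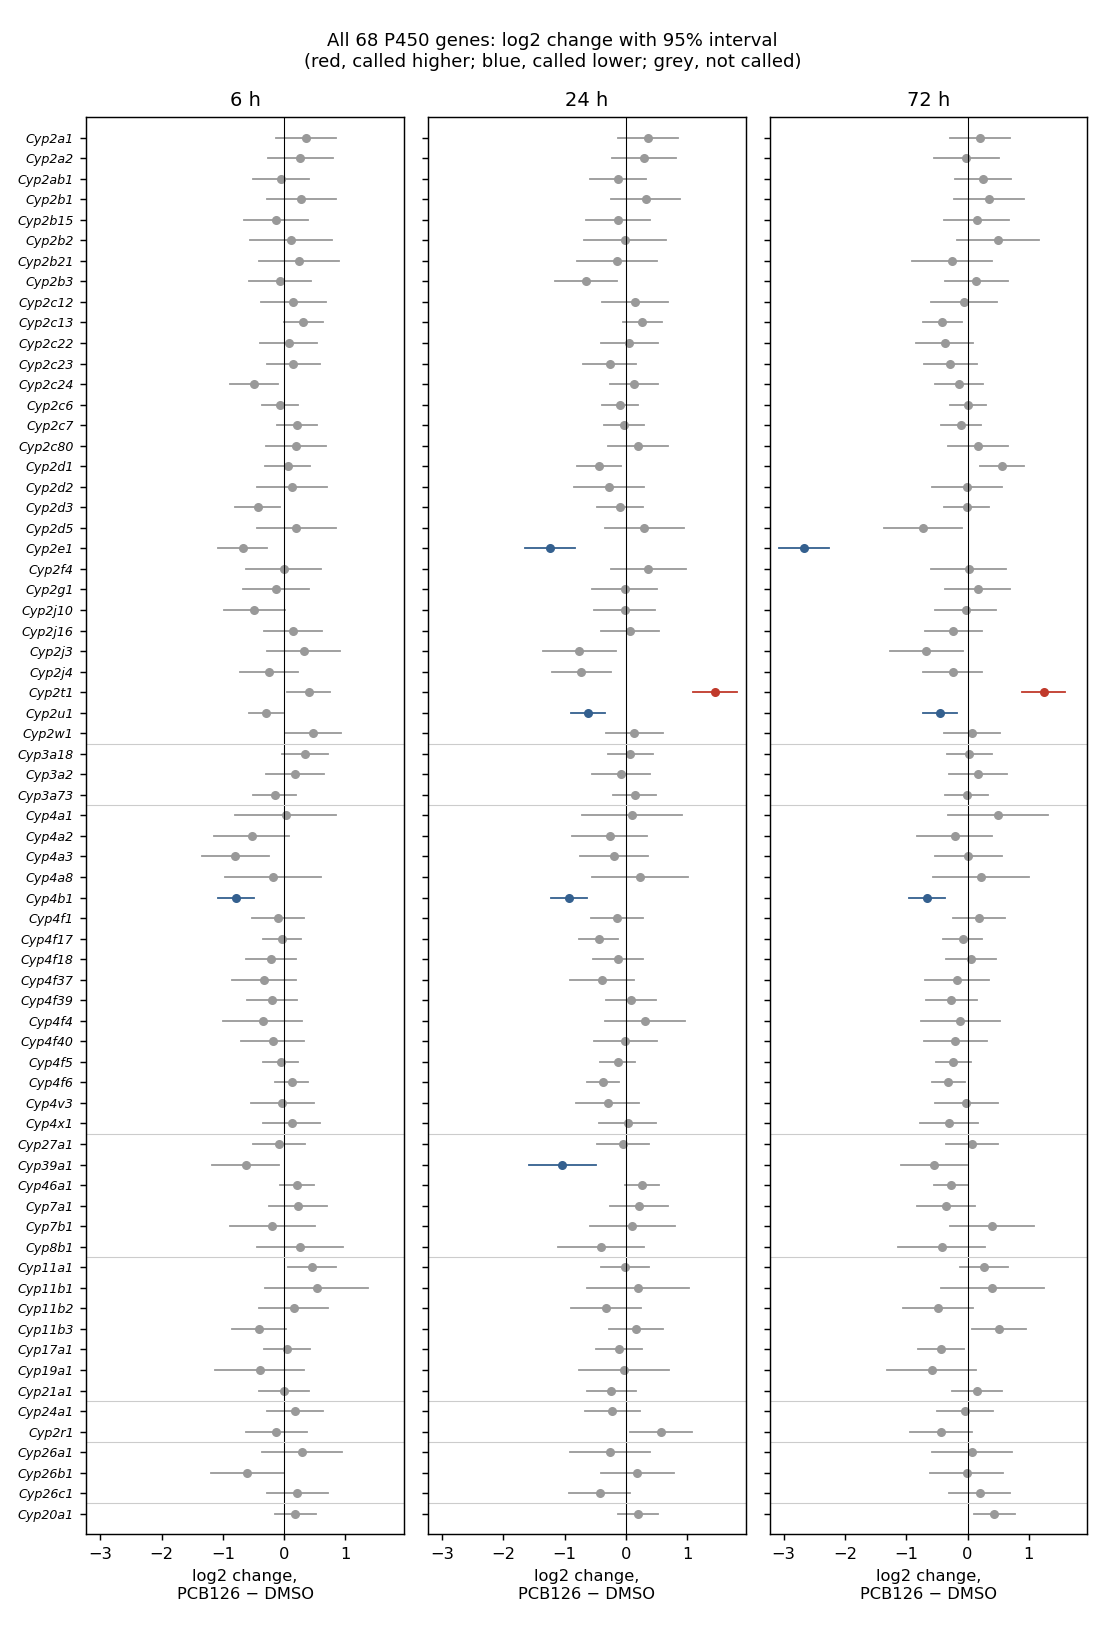
Log2 change (PCB126 minus DMSO, horizontal axis) of each of the 68 P450 genes at 6, 24 and 72 h, with points for the estimate and lines for the 95% confidence interval; grey rules separate the classes, from Cyp2 at the top to Cyp20a1 at the bottom. Red marks genes called higher and blue genes called lower, and most genes lie within 0.5 of 0, with Cyp2e1 at -2.67 (72 h) and Cyp2t1 at 1.45 (24 h) farthest out.

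All calls fell among the 33 brighter genes. Of these, 3.03%, 15.2% and 12.1% were called at 6, 24 and 72 h, beside 0.611%, 5.97% and 9.15% of the 13420 genes of the table above the same mark. The Cyp2 genes are given first, then the Cyp4 genes and the families of bile acid, hormone and vitamin metabolism.

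The promoters of 3 of the changed genes are shown because PCB126 binds the AhR, whose dimer with ARNT binds the core letters GCGTG. Whether the AhR acts on these genes was not tested. The windows are the 250 bases before the gene start in RefSeq's table for GRCr8, and capitals mark GCGTG or its reverse complement CACGC. Cyp2t1 (plus strand, chr1:91575260-91575509) rose, Cyp2e1 (plus strand, chr1:205269717-205269966) fell the furthest, and Cyp2u1 (minus strand, chr2:222540990-222541239) fell by less.
Cyp2t1: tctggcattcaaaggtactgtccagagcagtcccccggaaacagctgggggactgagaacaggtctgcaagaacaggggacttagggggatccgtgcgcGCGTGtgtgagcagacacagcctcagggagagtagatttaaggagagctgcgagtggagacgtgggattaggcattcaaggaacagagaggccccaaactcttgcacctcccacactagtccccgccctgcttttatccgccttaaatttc
Cyp2e1: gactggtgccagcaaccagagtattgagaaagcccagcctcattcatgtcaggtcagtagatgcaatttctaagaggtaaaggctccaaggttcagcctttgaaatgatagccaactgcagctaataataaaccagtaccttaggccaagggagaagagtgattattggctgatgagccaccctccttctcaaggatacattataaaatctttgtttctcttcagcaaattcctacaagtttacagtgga
Cyp2u1: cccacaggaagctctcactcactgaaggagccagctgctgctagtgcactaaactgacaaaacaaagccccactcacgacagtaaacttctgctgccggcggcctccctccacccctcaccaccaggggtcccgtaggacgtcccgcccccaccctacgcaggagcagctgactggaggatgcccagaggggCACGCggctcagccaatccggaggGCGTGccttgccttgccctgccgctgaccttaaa
Cyp2t1 held 1 match, at 151 bases before the start, Cyp2u1 held 2, at 58 and 34 bases before it, and Cyp2e1 held none. The same windows of Cyp4b1 and Cyp39a1 held none either. Of all 33469 promoters listed, 25.9% held the letters on either strand, and of the 53 P450 genes with a promoter entry 16 did (30.2%, a gene with several entries counted once). The share of all promoters counts each entry by itself. A P450 gene counted when any of its entries held the letters, which can raise its share. The HNF1 half-site GTTAAT or its reverse complement ATTAAC, counted in the same ways, stood in 6.45% of all promoters, in 2 of the 53 and in none of the 5 called genes. A match is a description of letters in this window, not a binding site, and for Cyp2t1, Cyp2u1 and Cyp4b1 the table's start lies inside the annotated gene, so the window may not be the promoter in use.

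Cyp2e1 oxidises ethanol, acetone and small solvents and turns acetaminophen into its reactive product. It had the largest change of the 68 genes at 72 h. At 6 h its level was 9.61, 9.06 and 9.37 in PCB126 cultures, against 10.24, 9.87 and 9.96 in DMSO cultures. At 24 h it was 9.13, 9.41 and 9.79 in PCB126 cultures, against 10.64, 10.82 and 10.58 in DMSO cultures. At 72 h it was 8.39, 8.21 and 8.06 in PCB126 cultures, against 10.92, 11.17 and 10.59 in DMSO cultures. The groups did not overlap at any time. The change was -0.68 at 6 h (SE 0.19, 95% confidence interval -1.08 to -0.27, limma's adjusted p 0.198), -1.23 at 24 h (adjusted p 8.61e-04) and -2.67 at 72 h (interval -3.08 to -2.27, adjusted p 1.57e-07). On the linear scale the PCB126 cultures held 62.5%, 42.5% and 15.7% of the DMSO level.

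The size of the Cyp2e1 effect differed between the times. It was the only 1 of the 68 called in limma's F-test of the effect across times (adjusted p 0.00487), which called 96 genes or 0.565% of all. The effect at 72 h was lower by 1.99 than at 6 h (SE 0.27, adjusted p 0.00164), while the difference of 24 h from 6 h was -0.55 (adjusted p 0.748) and that of 72 h from 24 h was -1.44 (SE 0.27, adjusted p 0.149).

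Part of the widening gap lay in the vehicle cultures. In DMSO Cyp2e1 averaged 10.90 ± 0.29 at 72 h and 10.03 ± 0.20 at 6 h (SD, n = 3 each), a difference of 0.87 (SE 0.19, limma's adjusted p 0.0192). This was the only P450 gene called between these groups, 1 of 68 beside 4.14% of all genes (0.865% higher), and the groups did not overlap. The call was lost without DMSO at 6 h replicate 2 or 3 and without DMSO at 72 h replicate 1 or 2 (adjusted p up to 0.0994), and in a fit to the compared groups alone (0.0730). In PCB126 cultures the mean was 9.35 ± 0.27 at 6 h, 9.45 ± 0.33 at 24 h and 8.22 ± 0.17 at 72 h. The DMSO arrays also enter the PCB126 comparisons, so the 2 sets of differences are not independent.

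**Figure D2:**
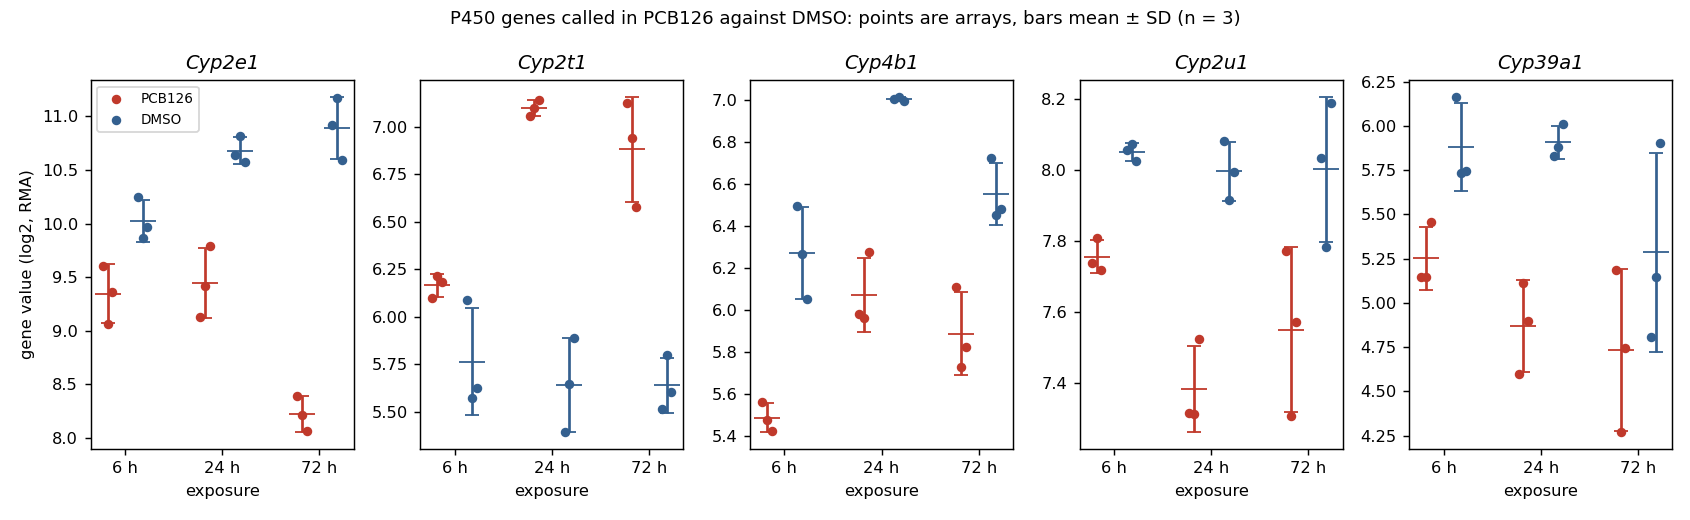
Gene values (log2, vertical axis, a separate range for each gene) of the 5 called P450 genes by exposure time, with PCB126 in red to the left of DMSO in blue; points are arrays and bars the mean ± SD (n = 3). Cyp2t1 is higher in PCB126 and the other 4 are lower, and the groups overlap for Cyp39a1 at 72 h alone.

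Cyp2t1, a rat Cyp2 gene on chromosome 1, was the only 1 of the 68 genes called higher. Other settings added Cyp2d1 or Cyp20a1 at 72 h. At 6 h it had 6.10, 6.21 and 6.19 in PCB126 cultures, against 6.09, 5.58 and 5.63 in DMSO cultures. At 24 h it had 7.06, 7.10 and 7.14 in PCB126 cultures, against 5.40, 5.65 and 5.89 in DMSO cultures. At 72 h it had 7.12, 6.94 and 6.58 in PCB126 cultures, against 5.52, 5.80 and 5.61 in DMSO cultures. Every PCB126 value was above every DMSO value of its time, with the nearest pair, 6.10 and 6.09, at 6 h. The level was 1.32-fold at 6 h (log2 change 0.40, SE 0.17, limma's adjusted p 0.514), 2.74-fold at 24 h (1.45, 95% confidence interval 1.10 to 1.81, adjusted p 5.70e-05) and 2.36-fold at 72 h (1.24, interval 0.89 to 1.59, adjusted p 1.24e-04). Both later calls held without any 1 array of their groups. The F-test across times gave an adjusted p of 0.0910. With the mean over probe sets in place of the median the 6 h change was 0.62 (adjusted p 0.0255).

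The P450 genes of the AhR battery, given for comparison, did not all rise. Cyp1a1 rose by 2.90, 5.55 and 6.22 and Cyp1b1 by 1.89, 2.61 and 2.58 at the 3 times. Cyp2s1 rose by 0.80 at 72 h and was not called at 6 or 24 h (0.20 and 0.55). Cyp1a2 was called at no time, with differences of 0.23, -0.26 and 0.11 (limma's adjusted p 0.797, 0.559 and 0.828). Cyp2t1 was thus called at 24 and 72 h but not at 6 h, where Cyp1a1 and Cyp1b1 already were. Whether these time courses differ from each other was not tested. The genes beside Cyp2t1 in RefSeq's order, Cyp2f4 and Egln2, had differences between -0.24 and 0.37 at the 3 times and were not called.

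Cyp2u1, known in human for hydroxylating long-chain fatty acids, fell by less. At 6 h it had 7.74, 7.81 and 7.72 in PCB126 cultures, against 8.06, 8.08 and 8.03 in DMSO cultures, a change of -0.30 (SE 0.13, limma's adjusted p 0.558). At 24 h it had 7.32, 7.31 and 7.52 in PCB126 cultures, against 8.08, 7.92 and 8.00 in DMSO cultures, a change of -0.61 (adjusted p 0.0110). At 72 h it had 7.77, 7.31 and 7.57 in PCB126 cultures, against 8.04, 7.78 and 8.19 in DMSO cultures, a change of -0.45 (adjusted p 0.0474). The PCB126 values lay below all DMSO values at each time. Both calls stand close to the threshold. The 24 h call was lost without PCB126 at 24 h replicate 1 (adjusted p 0.0514) or DMSO at 24 h replicate 1 (0.0611), and the 72 h call without PCB126 at 72 h replicate 2 or 3 or DMSO at 72 h replicate 1 or 3 (0.0966 to 0.196). In a fit to the compared groups alone both were lost (0.0549 and 0.323), and with the arrays centred on the median of all probe sets the 72 h call was lost (0.0744). Its neighbours Hadh and Sgms2 were not called.

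The other Cyp2 genes in this class of 30 were called at no time, with 3, 4 and 4 of them at an unadjusted p under 0.05. The 5 Cyp2b genes, which phenobarbital induces in rat liver through the receptor CAR, had values between 2.13 and 4.89 and differences between -0.65 and 0.50. The 8 Cyp2c genes, sex-dependent steroid hydroxylases among them, had values between 1.37 and 4.06 and differences between -0.50 and 0.31. The 3 Cyp3a genes, targets of the receptor PXR, had values between 1.75 and 3.15 and changes between -0.15 and 0.34, with none at an unadjusted p under 0.05 at any time. In these 3 groups 1 gene, of the Cyp2b, had a mean above the dimness mark. Probe sets that carry 2 symbols do not enter these values. The 11 of Cyp2b1 with Cyp2b2 had a median level of 5.48, with 7 above the mark. The 14 of Cyp2b12 with Cyp2b15 had one of 2.93, with 4 above it.

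Among the Cyp2d and Cyp2j genes some changes came near the threshold. Cyp2d1, a drug-oxidising form, had 6.02, 5.78 and 5.18 in PCB126 cultures at 24 h, against 6.05, 6.07 and 6.18 in DMSO cultures, a difference of -0.44 (SE 0.17, limma's adjusted p 0.196). At 72 h it had 6.06, 6.21 and 6.12 in PCB126 cultures, against 5.58, 5.45 and 5.67 in DMSO cultures, a difference of 0.56 (adjusted p 0.0581). The groups did not overlap at either time, with the order opposite, and the F-test across times gave an adjusted p of 0.172. Its 4 probe sets were split: 3 were lower at 24 h, and at 72 h 2 were higher and 2 lower (-0.36 to 1.20). With the mean over probe sets the differences were -0.36 at 24 h and 0.36 at 72 h (limma's adjusted p 0.297 and 0.264). Cyp2d5 was named for the third largest change in size at 72 h. It had 1.95, 3.33 and 2.87 in PCB126 cultures, against 3.59, 3.76 and 2.97 in DMSO cultures, which overlap (-0.73, SE 0.30, adjusted p 0.194). Of its 4 probe sets 1 was above the dimness mark, and that one gave -0.07. Cyp2j4, an arachidonic acid epoxygenase of rat, had 3.56, 4.17 and 4.32 in PCB126 cultures at 24 h, against 4.66, 4.66 and 4.92 in DMSO cultures, which did not overlap (-0.72, SE 0.23, adjusted p 0.0857).

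Cyp4b1, known from rabbit and rat lung for turning furan compounds into toxic products, was the only P450 gene called at all 3 times. At 6 h it had 5.56, 5.48 and 5.43 in PCB126 cultures, against 6.49, 6.27 and 6.05 in DMSO cultures. At 24 h it had 5.98, 5.96 and 6.28 in PCB126 cultures, against 7.00, 7.02 and 6.99 in DMSO cultures. At 72 h it had 6.11, 5.73 and 5.82 in PCB126 cultures, against 6.72, 6.45 and 6.48 in DMSO cultures. All PCB126 values were below all DMSO values at each time, and the PCB126 cultures held 58.1%, 52.4% and 63.1% of the DMSO level. The changes were -0.78 (limma's adjusted p 0.0146), -0.93 (6.06e-04) and -0.66 (0.00629), with an SE of 0.14, and the F-test across times gave an adjusted p of 0.962. The 24 and 72 h calls held without any 1 array of their groups. The 6 h call was lost without any PCB126 array of that time and without DMSO at 6 h replicate 1 or 2 (adjusted p 0.0554 to 0.0945). In a fit to the compared groups alone it was lost at 6 h (0.158) and 72 h (0.101).

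In RefSeq's order Cyp4b1 stands between Cyp4a1 and Efcab14. Cyp4a1 was not called (0.02, 0.10 and 0.50). Efcab14, listed on the platform under an older symbol, had differences of -0.40, -0.50 and -0.49, with limma's adjusted p at 0.209, 0.0165 and 0.0140. Its 24 h call was lost without PCB126 at 24 h replicate 3 or DMSO at 24 h replicate 1 or 2, and its 72 h call without DMSO at 72 h replicate 1 (adjusted p up to 0.0766). In a fit to the compared groups alone both were lost (0.111 and 0.141).

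The other Cyp4 genes were not called. Their unadjusted p was under 0.05 in 1, 2 and 1 of 15 at the 3 times. The Cyp4a genes hydroxylate fatty acids in rat liver and kidney and are induced through PPARα. Cyp4a3 had the largest difference in size of the 68 at 6 h by the median over probe sets, with 3.04, 3.40 and 3.10 in PCB126 cultures against 3.80, 3.84 and 4.30 in DMSO cultures, which did not overlap (-0.80, SE 0.26, limma's adjusted p 0.318). With the mean over probe sets the 6 h difference was -0.35 (adjusted p 0.445), smaller in size than that of Cyp4b1, and with bright probe sets only it was -0.14 (adjusted p 0.957). At 24 and 72 h its change was -0.19 and 0.01 and the groups overlapped. The 9 Cyp4f genes, which hydroxylate leukotrienes and other fatty acids, stood above the dimness mark in 8 of 9 cases, and their changes lay between -0.44 and 0.31. The largest of these was Cyp4f17 at 24 h, with 7.04, 6.72 and 6.78 in PCB126 cultures against 7.54, 6.96 and 7.38 in DMSO cultures, which overlap (-0.44, SE 0.15, adjusted p 0.113).

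Of the 6 genes of cholesterol and bile acid metabolism Cyp39a1 was called. It is an oxysterol hydroxylase of bile acid synthesis in mouse and human. At 6 h it had 5.15, 5.15 and 5.46 in PCB126 cultures, against 6.17, 5.73 and 5.75 in DMSO cultures, a change of -0.63 (SE 0.26, limma's adjusted p 0.501). At 24 h it had 4.60, 5.11 and 4.90 in PCB126 cultures, against 5.83, 5.88 and 6.01 in DMSO cultures, a change of -1.04 (adjusted p 0.0258). At 72 h it had 5.19, 4.27 and 4.75 in PCB126 cultures, against 4.81, 5.15 and 5.91 in DMSO cultures, a change of -0.55 (adjusted p 0.259). The groups overlapped at 72 h only. The 24 h call was kept without PCB126 at 24 h replicate 2 (adjusted p 0.0369) and lost without any other array of the 2 groups (0.0693 to 0.123). The 72 h difference was called in 1 of 12 other settings, the mean over probe sets (-0.92, adjusted p 0.0106), and the adjusted p in the others reached 0.523. Without DMSO at 72 h replicate 3 it was -0.24 (adjusted p 0.698), and without PCB126 at 72 h replicate 2 it was -0.32.

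The gene next to Cyp39a1 in RefSeq's order, Rcan2, an inhibitor of calcineurin, also fell. Its changes were -0.04, -0.67 and -1.13 (limma's adjusted p 0.978, 0.0405 and 6.51e-04). The 24 h call was lost with the replicate number as a block (0.0556), with the arrays centred on the median of all probe sets (0.0504) and in a fit to the compared groups alone (0.211), and also without PCB126 at 24 h replicate 1, where the change was -0.40, or without any DMSO array of that time (0.0871 to 0.145). The neighbour on the other side, Slc25a27, had differences of -0.31, -0.27 and -0.58 and was not called. The other 5 genes of this class were not called, with none at an unadjusted p under 0.05. They include Cyp7a1, the rate-limiting enzyme of bile acid synthesis, which had differences of 0.23, 0.22 and -0.35 at a mean level near the dimness mark (4.07), and Cyp27a1, which starts the alternative route (-0.09, -0.05 and 0.08).

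No gene of the hormone, vitamin and retinoid classes was called. The 7 genes of steroid hormone synthesis, with Cyp19a1 (aromatase) and Cyp17a1 among them, had 1, 0 and 2 at an unadjusted p under 0.05 and changes between -0.58 and 0.53. Only 2 of the 7 were above the dimness mark. The vitamin D genes Cyp2r1, which makes the circulating form, and Cyp24a1, which clears the hormone, had differences between -0.43 and 0.58, with 0, 1 and 0 at an unadjusted p under 0.05. The 3 Cyp26 genes, which break down retinoic acid, had differences between -0.60 and 0.30, with 1, 0 and 0 at an unadjusted p under 0.05.

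Cyp20a1, an orphan P450 of unassigned substrate, had 9.08, 8.30 and 8.60 in PCB126 cultures at 72 h, against 8.10, 8.24 and 8.32 in DMSO cultures. The groups overlap, and the highest value is from replicate 1 of PCB126 at 72 h, one of the arrays with a wide spread. The difference was 0.44 (SE 0.15, limma's adjusted p 0.110).

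Most probe sets of the called genes went in the gene's direction. The genes were called on the median of these same probe sets, so this is a description and no added support. All 11 of Cyp2e1 were lower in PCB126 at each time, with differences between -3.73 and -2.21 at 72 h. All 13 of Cyp4b1 were lower at each time, with 6 h differences between -1.51 and -0.01. Of the 11 of Cyp2t1, 10 were higher at 6 h and all at 24 and 72 h, with 72 h differences between 0.02 and 2.97. Of the 14 of Cyp2u1, 12, 12 and 14 were lower at the 3 times, and of the 13 of Cyp39a1, 13, 12 and 12. The 72 h differences of Cyp39a1 ran from -2.05 to 0.33. Probe sets of 1 gene share its RNA and are not replicates. For the genes named by size alone, Cyp4a3 had 7 of 10 probe sets lower at 6 h and Cyp2d5 all 4 lower at 72 h.

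**Figure D3:**
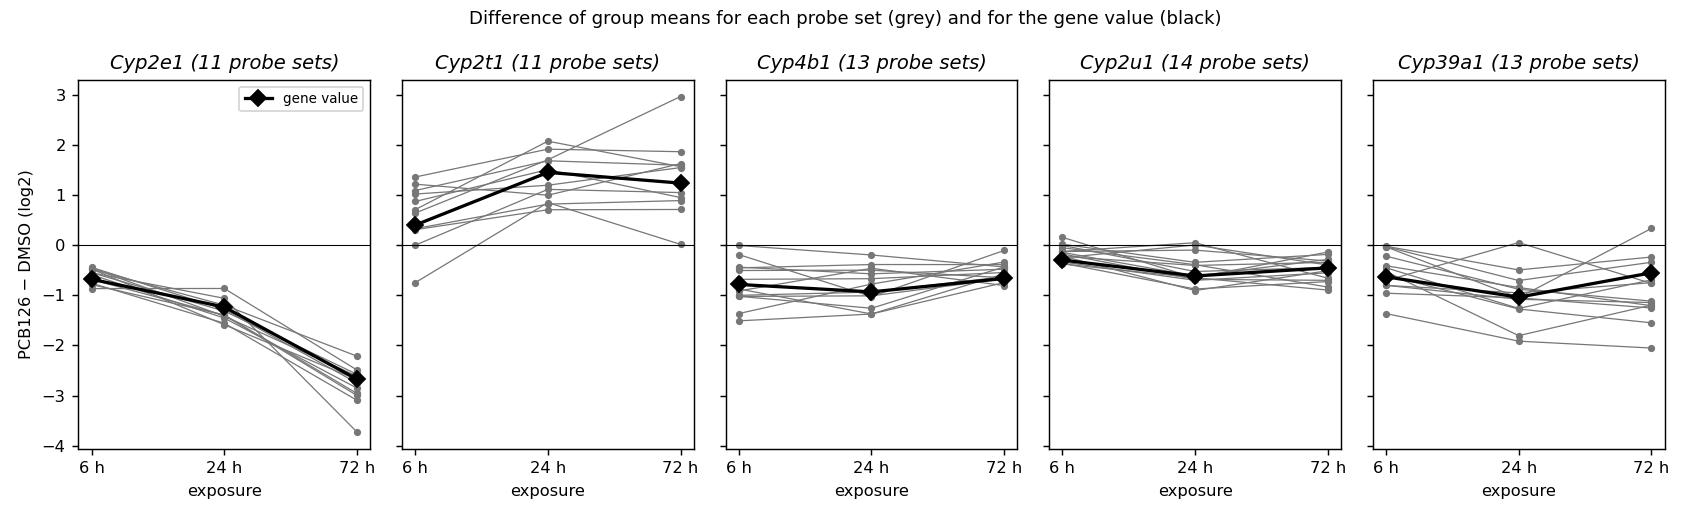
Difference of the group means (PCB126 minus DMSO, log2, vertical axis) by exposure time for each probe set of the 5 called genes, in grey, and for the gene value, in black. All 11 probe sets of Cyp2e1 lie below 0 at each time and farthest from it at 72 h, and all 11 of Cyp2t1 lie above 0 at 24 and 72 h.

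P450 genes of 1 subfamily are close paralogs and stand in clusters, with 23 of the 68 on chromosome 1, 15 on chromosome 7 and 11 on chromosome 5. Probes can therefore read more than 1 of them. A further 109 probe sets carried a P450 symbol together with another symbol, in 11 combinations, and were left out of the gene values. In 20 of the 109 the other symbol was that of Fam149a, which is not a P450 gene (with Cyp4v3), and in the rest all symbols were P450 genes, of the Cyp2a, Cyp2b, Cyp2d, Cyp2j, Cyp4a and Cyp11b subfamilies and Cyp4x1. The median differences of the 11 combinations lay between -0.49 and 0.38 at the 3 times. How far the probe sets kept for a gene also read its paralogs was not tested.

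The genes that serve the P450 enzymes were set beside them. Of 7 genes of electron supply and binding partners 6 were measured, all above the dimness mark. Por, the oxidoreductase that passes electrons to all microsomal P450 enzymes, had differences of 0.20, 0.25 and 0.23. None of the 6 was called by limma at any time, with 0, 2 and 1 at an unadjusted p under 0.05. The largest change was that of Cyb5a, the electron carrier cytochrome b5, at 24 h (0.61, SE 0.22, adjusted p 0.167).

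Of 19 transcription factors known to act on P450 genes in liver 18 were measured, and 2 were called. That was 0 of 18 at 6 h, 1 at 24 h and 1 at 72 h, beside 0.494%, 4.84% and 7.44% of all genes. At limma's unadjusted p under 0.05 there were 1, 1 and 3 of 18, beside 8.31%, 15.4% and 18.6% of all genes. Dbp, a clock-output factor that acts on Cyp2 and Cyp7a1 genes in rodents, was lower at 24 h (-0.67, limma's adjusted p 0.0305) and had -0.54 at 72 h (0.0747). Foxa2, a pioneer factor of liver genes, was higher at 72 h (0.70, adjusted p 0.0405). The Dbp call was kept without DMSO at 24 h replicate 2 and lost without any other array of its groups (0.0676 to 0.155). The Foxa2 call was lost without PCB126 at 72 h replicate 1 or 2 or DMSO at 72 h replicate 1 or 3 (0.106 to 0.165). In a fit to the compared groups alone both calls were lost (0.101 for Dbp and 0.130 for Foxa2). The receptors PXR (Nr1i2) and CAR (Nr1i3) were not called. Nr1i2, with a mean of 3.97 over the 18 arrays, lay below the dimness mark of 4.03. Nr1i3 had a difference of 0.51 at 6 h (SE 0.16, adjusted p 0.270), where its groups did not overlap. Its mean there was 4.53 in PCB126 cultures and 4.02 in DMSO cultures, the latter at the dimness mark.

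**Figure D4:**
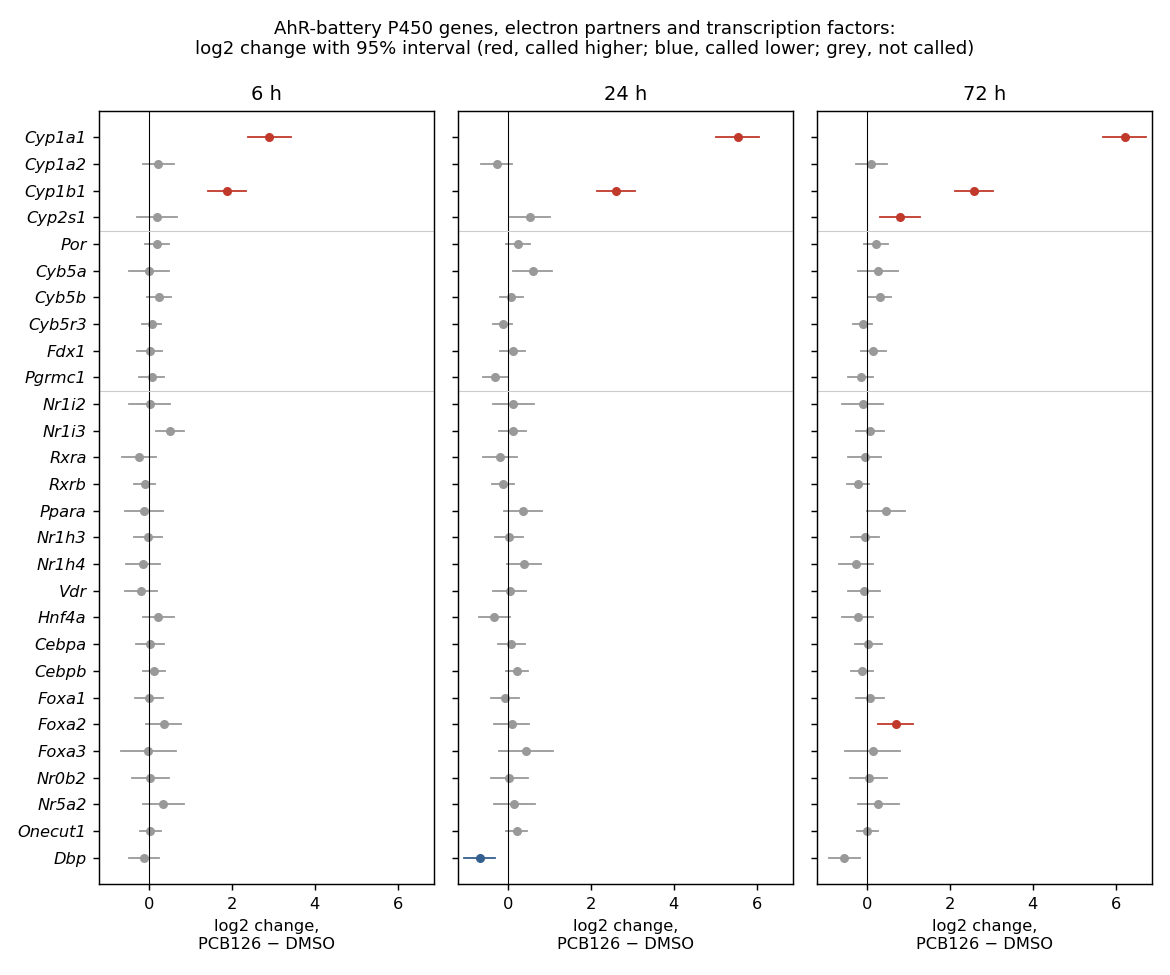
Log2 change (PCB126 minus DMSO, horizontal axis) with its 95% confidence interval for the 4 left-out P450 genes, 6 electron partners and 18 transcription factors at each time; red marks called higher, blue called lower and grey not called. Outside the 4 P450 genes at the top, Dbp at 24 h and Foxa2 at 72 h are the 2 coloured points.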

How the data were processed

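The deposited table holds log2 expression values of 1044112 probe sets, made by the authors, who per the submitters' processing notes used RMA (background correction, normalisation between arrays and a summary of probes) in Affymetrix Power Tools 1.12.0. For the array design, the sources used here name no build. The platform annotation paired 223110 probe sets with 1 symbol. A gene's value was the median over these, giving 16988 genes, and symbols were updated through RefSeq's GRCr8 gene names (66 of the 68 are current, and 2 are older symbols).

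All 18 arrays entered 1 model, with a mean for each group, in limma 3.58.1 under R 4.3.3 (data.table version 1.17.8 and matrixStats version 1.5.0), with 12 residual and 3.89 prior degrees of freedom. Tests were two-sided, with Benjamini-Hochberg adjustment over all genes, and were tested on simulated data. Named were the genes called in any comparison and the 3 with the largest change in size at each time, with called partner genes. The genes beside called P450 genes, and Cyp2d1, Cyp2j4, Cyp4f17, Cyp20a1, Cyp7a1, Cyp27a1, Por, Cyb5a and Nr1i3 were named after their values were seen. The genes, lists and tests were chosen with earlier results of these data known.

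Other settings were a block for the replicate number, means in place of medians over probe sets, a filter on dim probe sets or on dim genes (mean at most 4.03), a minimum of 4 probe sets per gene, 2 other scalings, an intensity trend, the compared groups alone, and leaving out each array. Chosen after seeing the data were array quality weights, centring each array on its gene median, and a fit without replicate 1 of PCB126 at both 24 and 72 h. No 2 arrays of a group were identical (highest correlation over genes 0.990). No sequence of the proteins was used here.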

Additional observations from a re-analysis of the deposited data

Results flagged for a closer look

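The effect of PCB126 on Cyp2e1 differed between 6, 24 and 72 h (limma's F-test, adjusted p 0.00487), with log2 changes of -0.68, -1.23 and -2.67. The adjusted p was 0.00471 to 0.0188 with each of the 18 arrays left out in turn. Part of the widening lay in the DMSO cultures, where Cyp2e1 was higher by 0.87 at 72 h than at 6 h. The call of that difference was less stable. It was lost in 4 of 6 fits without 1 array (limma's adjusted p up to 0.0994) and with the compared groups alone (0.0730). What sets this time course was not tested.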

How the results depend on the processing

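The calls of Cyp2e1 and Cyp2t1 at 24 and 72 h and of Cyp4b1 at 24 h were kept in each of the 12 other settings run at those times and without any 1 array of their groups. With a replicate block the counts of called P450 genes were 1, 5 and 4 at 6, 24 and 72 h, 1 in the F-test and 1 between the DMSO groups, as without it, and of the single genes named Rcan2 at 24 h alone was lost. The labels share only a number: residuals of the 9 pairs of arrays with the same number and time correlated by 0.00 to 0.17 (2 over 0.1), and those of 18 pairs with different numbers by -0.15 to 0.07. The mean over probe sets called 2 at 6 h, 6 at 24 h and 6 at 72 h. In a fit to the compared groups alone, which has fewer arrays to estimate the spread, limma called 0 at 6 h (15 at an unadjusted p under 0.05), 2 at 72 h and 0 between the DMSO groups (7 at an unadjusted p under 0.05). Between the DMSO groups, bright genes alone and array quality weights each called 2 (Cyp2e1 and Cyp2j10). Array quality weights called 3 in the F-test (Cyp2d1, Cyp2e1 and Cyp2t1). The cause of these other moves was not tested. With each array left out in turn the counts were 0 to 1 at 6 h, 3 to 5 at 24 h, 3 to 5 at 72 h, 0 to 1 between the DMSO groups and 1 throughout in the F-test. Over the single genes named and the median change of the 68, 450 values under another setting kept their direction and side of the threshold (or, for the medians, moved by less than the spread between arrays), 53 lost the call, 2 gained it and none reversed. What limits these data is 3 arrays per group and the dimness of 35 of the 68 genes.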

Other observations

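Cyp4f5, of the leukotriene and fatty acid hydroxylases, depends on how its probe sets are joined, and was chosen after its values were seen. At 24 h 20 of its 22 probe sets were lower in PCB126 than in DMSO, with a median probe set difference of -0.49, while the gene value, a median of levels, changed by -0.13 (limma's adjusted p 0.731). With the mean over probe sets the change was -0.43 (SE 0.11, adjusted p 0.0215) at 24 h and -0.37 (adjusted p 0.0359) at 72 h. At 6 h, 8 of the 22 were lower. Its neighbour in name Cyp4f6 had 9 of 16 probe sets lower at 24 h and 12 of 16 at 72 h, and gene value changes of -0.37 and -0.31 (adjusted p 0.114 and 0.168). Probe sets of 1 gene are not replicates, and paralogs of this subfamily can share probes.

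Between the DMSO groups, 72 h against 6 h, 43 of the 68 P450 genes had a higher value and 25 a lower one, with a median of 0.04 beside -0.05 over all genes, and 9 had an unadjusted p under 0.05 (13.2%, beside 18.6% of all genes).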
